A study of Mus musculus with 2 samples.

Results

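The cornified envelope genes described here are 10 of the 32285 genes in the deposited tables: the small proline-rich genes Sprr1a, Sprr1b, Sprr2a3, Sprr2d, Sprr2f, Sprr2h and Sprr3, and involucrin (Ivl), transglutaminase 1 (Tgm1) and Krtdap. They were chosen by name, and all 10 were found by symbol. The tissue was the cornea with the limbus, the rim around it, from 1 uninjured wild-type mouse (treatment labelled control) and 1 wild-type mouse whose eye was injured with sodium hydroxide (NaOH). The sources used here do not give the age, the strain background or the time from injury to collection. Most but not all of the conjunctiva was cut away, and cells were freed with liberase and trypsin before droplet capture. With 1 library per group there is no replicate check and no test was made. The intervals given are 95% exact intervals (Poisson for levels, conditional binomial for ratios, binomial for shares). They cover counting error only and hold no variation between mice. Those of levels and ratios also treat each UMI as independent. They are therefore too narrow for genes whose UMIs lie in few cells, such as Sprr2f and Sprr2d.

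The cornified envelope is a protein shell built under the plasma membrane of keratinocytes as they finish differentiating. Precursor proteins such as involucrin, loricrin and the small proline-rich (SPRR) proteins are joined to each other by transglutaminases, with SPRR proteins acting as flexible bridges between the other precursors. The corneal surface does not normally build a horny layer, but its epithelium is known to make SPRR proteins, and they are known as stress-responsive proteins in many epithelia. Krtdap encodes keratinocyte differentiation-associated protein, a small secreted protein of stratified epithelia.

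The 7 Sprr members and Ivl lie in the epidermal differentiation complex, the chromosome 3 cluster in which most envelope precursor genes sit. On GRCm38, with the GENCODE M21 annotation, Sprr2a3 occupies chr3:92285417-92291405, Sprr2d chr3:92339140-92340873, Sprr2f chr3:92365187-92366442 and Sprr2h chr3:92385685-92387324, all on the plus strand. Sprr1b (chr3:92436809-92438789), Sprr3 (chr3:92456502-92458720), Sprr1a (chr3:92483952-92485895) and Ivl (chr3:92570902-92573735) follow on the minus strand. Each of these 8 genes has 2 exons with the coding sequence in 1. Tgm1 lies apart on chr14:55700009-55713926 (minus strand, 15 exons, overlapped by Gm49067 on the plus strand), and Krtdap on chr7:30787896-30791097 (plus strand, 6 exons).

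Because the Sprr2 genes are close copies, the counts of some cannot be separated with confidence. The last 60 coding bases are shown to compare the copies. Capitals mark bases that differ from the first sequence of each set, Sprr2a3 for the first pair and Sprr2f for the other 3 genes.

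Sprr2a3 coding end (chr3:92288777-92288836, plus strand): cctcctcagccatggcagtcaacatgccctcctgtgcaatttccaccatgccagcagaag
Sprr2a1 coding end (chr3:92219281-92219340, plus strand): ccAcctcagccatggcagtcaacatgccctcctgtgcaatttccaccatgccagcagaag
Sprr2f coding end (chr3:92366064-92366123, plus strand): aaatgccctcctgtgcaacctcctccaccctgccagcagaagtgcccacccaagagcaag
Sprr2d coding end (chr3:92340449-92340508, plus strand): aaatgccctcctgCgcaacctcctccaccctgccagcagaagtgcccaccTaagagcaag
Sprr2h coding end (chr3:92386896-92386955, plus strand): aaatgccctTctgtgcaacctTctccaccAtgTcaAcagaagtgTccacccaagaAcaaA

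Sprr2a1 differed from Sprr2a3 at 1 of these 60 bases, Sprr2d from Sprr2f at 2, and Sprr2h from Sprr2f at 8. Over whole transcripts, 40.6% of the 90-base windows of Sprr2a3 also occurred in another Sprr gene, most often Sprr2a1. For Sprr2a1 and Sprr2a2, which are annotated with overlapping gene models, the shares were 93.2% and 93.6%. None of the 90-base windows of Sprr1a, Sprr1b, Sprr2d, Sprr2f, Sprr2h or Sprr3 occurred in another Sprr gene. The sources used here do not say how reads that match several genes were counted. The Sprr2a3 counts may therefore hold reads of its near-identical neighbours or miss reads shared with them, and its absolute level is uncertain.

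The promoters are shown for the Sprr2 members and for Sprr1a, the member with the most UMIs in both libraries. Each is the 200 bases before the RefSeq transcript start (GRCm38.p6), with capitals for the AP-1 motif (TGANTCA), the octamer motif (ATTTGCAT, the sequence read by POU factors) and the TATA motif (TATAAA), searched on both strands.

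Sprr2f promoter (chr3:92364987-92365186, plus strand): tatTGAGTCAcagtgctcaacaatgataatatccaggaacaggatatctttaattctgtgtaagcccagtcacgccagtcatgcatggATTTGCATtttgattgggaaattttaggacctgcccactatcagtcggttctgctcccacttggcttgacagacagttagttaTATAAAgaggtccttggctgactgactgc
Sprr2d promoter (chr3:92338940-92339139, plus strand): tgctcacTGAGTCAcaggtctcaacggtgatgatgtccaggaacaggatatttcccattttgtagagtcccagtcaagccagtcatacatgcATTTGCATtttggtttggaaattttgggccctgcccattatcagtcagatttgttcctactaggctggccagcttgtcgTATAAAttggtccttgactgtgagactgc
Sprr2h promoter (chr3:92385485-92385684, plus strand): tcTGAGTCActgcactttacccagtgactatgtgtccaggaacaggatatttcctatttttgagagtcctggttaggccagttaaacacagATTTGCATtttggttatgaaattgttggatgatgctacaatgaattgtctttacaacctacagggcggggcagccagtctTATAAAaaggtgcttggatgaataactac
Sprr2a3 promoter (chr3:92285104-92285303, plus strand): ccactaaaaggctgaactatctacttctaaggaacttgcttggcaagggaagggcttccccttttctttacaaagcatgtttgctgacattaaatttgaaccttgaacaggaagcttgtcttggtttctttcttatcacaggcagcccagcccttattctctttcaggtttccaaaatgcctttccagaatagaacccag
Sprr1a promoter (chr3:92485882-92486081, minus strand): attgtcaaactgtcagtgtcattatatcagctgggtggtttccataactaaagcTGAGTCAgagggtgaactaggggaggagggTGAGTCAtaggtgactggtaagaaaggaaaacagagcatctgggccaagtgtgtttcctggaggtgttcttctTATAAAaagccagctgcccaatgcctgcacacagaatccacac

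In Sprr2d, Sprr2f and Sprr2h the AP-1 motif began 193, 197 and 198 bases before the start and the octamer 108, 112 and 109 bases before it. The Sprr2a3 window held none of the 3 motifs, but it ends at the RefSeq start, upstream of the GENCODE start given above, whereas the windows of Sprr2d, Sprr2f and Sprr2h meet both starts. Sprr1a held 2 AP-1 motifs and a TATA motif but no octamer. Over the 250 bases before the start, the octamer occurred in 3 of the 10 members and 7 of 14 Sprr genes with a RefSeq promoter, against 1.6% of 32851 mouse promoters. AP-1 motifs occurred in 7 of the 10 members against 6.75% of all promoters, and TATA in 8 against 12.4%. Of the other 3 motifs searched, CCACCC (read by KLF factors) occurred in 6 members against 28.1% of promoters, GGAAGT (ETS) in 2 against 19.7% and the IRF motif in 1 against 2.98%. The promoters of Sprr2d, Sprr2f and Sprr2h resemble each other (57 to 70% identical bases), so their matches are not independent. A match describes letters in a window and not a bound site.

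Cells were clustered without the members and the other listed envelope genes, so that no cluster was defined by them. The analysed cells numbered 6722 uninjured and 8326 injured, with medians of 10144.5 and 10589 UMIs (molecular barcodes that count captured transcripts). Epithelial clusters held 5374 of the uninjured and 5752 of the injured cells, with 70000103 and 79938419 UMIs, and 15 barcode sequences occurred in both libraries. The libraries hardly mixed: of the epithelial clusters only 7 and 8 had at least 20 cells of each library, so most of what follows sets different cell states side by side. The corneal keratin Krt12 stood at 19510 CPM (counts per 1000000 UMIs, that is the UMIs of a gene scaled to the total UMIs of the summed cells) in the uninjured epithelium and at 27.05 CPM in the injured epithelium. The injured library's epithelium thus nearly lacked the defining corneal keratin. Krt14 stood at 2833 CPM in the uninjured and 8319 CPM in the injured epithelium, and Krt5 at 6012 and 3280 CPM. In all comparisons fewer expressing cells and less RNA per cell are separated only where shares of cells are given. Neutrophil markers summed to 28.4 CPM in the uninjured and 102 CPM in the injured epithelial cells, stromal markers to 69.5 and 199 CPM, and macrophage or monocyte markers to 1.51 and 14.7 CPM. Their part in the results was not tested.

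The uninjured clusters are numbered with their leading genes as follows. Clusters 0 (2258 cells, Nppb, Aldh3a1) and 3 (520 cells, Nppb, Epgn, Mmp10) had high Krt14, cluster 2 (439 cells) was led by cell cycle genes, and cluster 1 (752 cells) by Spink7, Dsg1a and Krt12. Cluster 14 (663 cells) was led by Ly6g6c, Clic3 and Muc4, and cluster 10 (69 cells) by Lce3a and Psca. Of the injured clusters, 18 (3018 cells) was led by Gpha2, Areg and Ereg, 16 (977 cells) by Wfdc18, Inhba and Actn1, 13 (512 cells) by cell cycle genes and 9 (72 cells) by Psca and Asprv1. Cluster 7 (624 uninjured, 29 injured cells) was led by Apoe and Tppp3 and had high Gpha2. Cluster 8 (40 uninjured, 1143 injured cells) was led by Krt19, Krt4 and Krt13, with Krt4 at 2508 CPM in its uninjured and 2662 CPM in its injured cells.

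**Figure D1:**
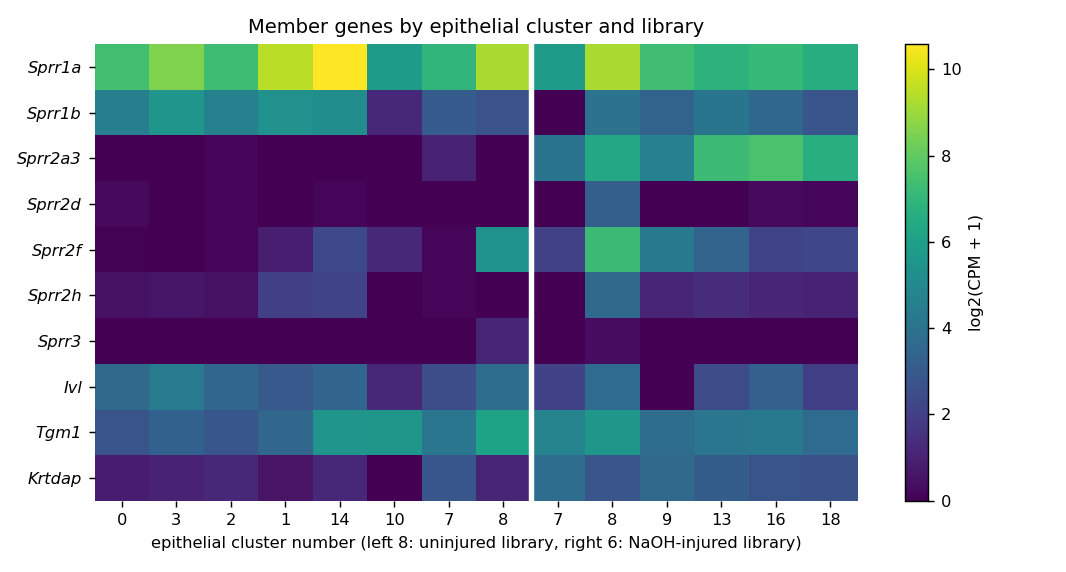
Levels of the 10 genes as log2(CPM + 1), by epithelial cluster (columns) in the uninjured (left of the white line) and NaOH-injured library. Sprr1a is brightest in uninjured cluster 14, Sprr2a3 is bright only right of the line, and Sprr2d, Sprr2f and Sprr2h are brightest in injured cluster 8.

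Sprr1a, an SPRR precursor known to rise with keratinocyte differentiation and injury, was the most counted member in the uninjured epithelium. It had 34332 UMIs there (490.5 CPM, interval 485.3 to 495.7) and 20457 in the injured epithelium (255.9 CPM, 252.4 to 259.4). The injured level was 1.92-fold lower (1.88 to 1.95), just short of the 2-fold limit used to call a gene higher or lower. Within the uninjured library, Sprr1a was at 1537 CPM in cluster 14, 723.1 in cluster 1, 603.2 in cluster 8, 373 in cluster 3, 164.6 in cluster 0, 154.5 in cluster 2, 122.7 in cluster 7 and 56.02 in cluster 10. The intervals of neighbours in this order did not overlap except those of clusters 0 and 2. Cluster 14, with 12.3% of the uninjured epithelial cells, held 46.8% of the Sprr1a UMIs.

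The Psca-high cluster 10 did not follow cluster 14. Its Sprr1a level of 56.02 CPM (40.37 to 75.72) was near that of 38.77 CPM in uninjured stromal cells, which should lack the gene and so mark the level of free RNA. Cells thinned to 1000 UMIs each gave the same order: 52.1% of cluster 14 cells (48 to 56.2), 35% of cluster 1 cells and 5.8% of cluster 10 cells (1.6 to 14.2) had a Sprr1a UMI, against 4.22% of stromal cells (median depths before thinning are 11536, 11481, 9326 and 5725 UMIs). Without thinning the shares were 78.7, 73.1, 34.8 and 18.8%.

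In the injured library Sprr1a was concentrated in cluster 8, at 597.6 CPM (587.8 to 607.4), where 70.3% of its UMIs lay in 19.9% of the cells. This equalled, within counting error, the 603.2 CPM (553.3 to 656.3) of the 40 uninjured cells in the same cluster. The other injured clusters were much lower, at 161 CPM in cluster 9, 134.3 in cluster 16, 112.7 in cluster 13, 95.89 in cluster 18 and 54.47 in cluster 7. Injured stromal cells had 13.75 CPM and neutrophils 34.91 CPM, and the interval of cluster 7 (31.73 to 87.22) includes only the latter. The neutrophils were much shallower, at a median of 852.5 UMIs against 11994 in stromal cells.

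Sprr1b, the close relative of Sprr1a with 78.4% identical coding bases, fell with the injured state. It had 1940 UMIs (27.71 CPM) in the uninjured and 860 (10.76 CPM) in the injured epithelium, a 2.58-fold lower level (2.38 to 2.8). Its order of levels differed from that of Sprr1a: uninjured cluster 3 was highest at 45.37 CPM (40 to 51.25), followed by cluster 1 at 40.18 (36.83 to 43.76) and cluster 14 at 35.21 (31.7 to 38.99), and adjacent intervals overlapped. Cluster 10 had 1 UMI. In the injured library clusters 13 and 8 were highest, at 16.28 and 15.24 CPM, and cluster 18 was at 6.016 CPM.

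**Figure D2:**
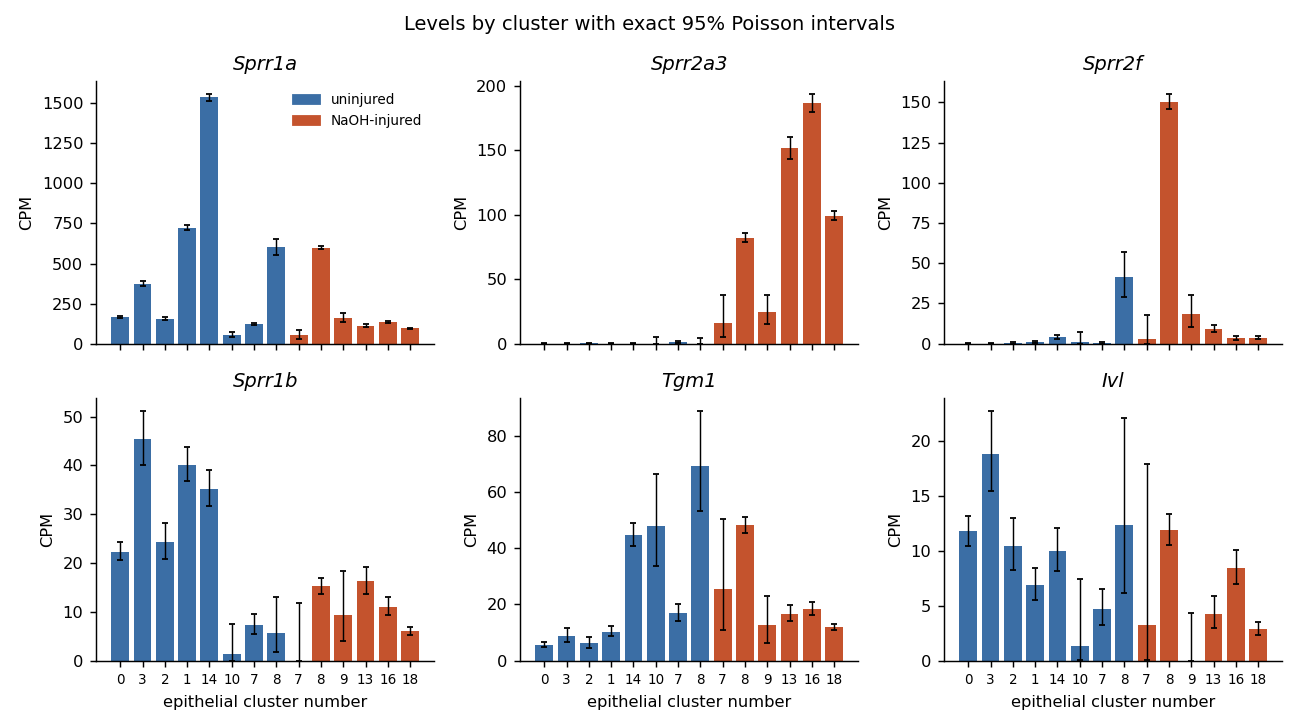
CPM of 6 genes in each epithelial cluster (blue uninjured, red NaOH-injured), with exact 95% Poisson intervals. Each panel has its own axis from 0: Sprr1a peaks at 1537 in uninjured cluster 14, Sprr2a3 at 186.5 in injured cluster 16 and Sprr2f at 150.5 in injured cluster 8.

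Sprr2a3, one of the SPRR2 bridging precursors, was nearly absent from the uninjured and widespread in the injured epithelium. The uninjured epithelium had 9 UMIs (0.129 CPM, 0.0588 to 0.244) in 4 of 5374 cells, 6 of them in a single cell, and 7 of the 9 lay in the Gpha2-high cluster 7. The injured epithelium had 9067 UMIs (113.4 CPM, 111.1 to 115.8) in 2268 of 5752 cells, of which the highest cell held 55. The ratio was 882-fold (464 to 1930), and its size rests on those few uninjured UMIs. After thinning to 1000 UMIs per cell, 0 of 5184 uninjured and 456 of 5706 injured epithelial cells had a UMI.

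Among the injured clusters Sprr2a3 was highest in the Inhba- and Actn1-led cluster 16 at 186.5 CPM (179.4 to 193.9), then in cycling cluster 13 at 151.5 (143.3 to 160.1), cluster 18 at 99.26 (95.87 to 102.7), cluster 8 at 82.13 (78.55 to 85.84), cluster 9 at 24.5 (15.17 to 37.46) and cluster 7 at 16.02 (5.202 to 37.39). Only the last pair overlapped. Injured stromal cells had 4.748 CPM and neutrophils 14.81 CPM, which is 4.19% and 13.1% of the epithelial level. For the epithelial keratin Krt5 the same shares were 5.36% and 15.1%, and for Krt14 4.48% and 10.8%. In stromal cells and neutrophils Sprr2a3 thus appeared at about the share of these keratins, though 17 of its 48 stromal UMIs lay in 1 cell. Injured vascular endothelial cells had 15.07 CPM (12 of 31 UMIs in 1 cell), mural cells 7.652 CPM, and macrophages or monocytes 3.11 CPM. In cluster 8, 0 of 893635 uninjured UMIs were Sprr2a3, against 1978 of 24082622 injured UMIs, a ratio of 24.5 when the 0 is set to a floor of 3 counts per library, with an interval that begins at 19.9.

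Sprr2f, Sprr2d and Sprr2h were concentrated elsewhere, in cluster 8. Sprr2f had 94 UMIs in 18 uninjured epithelial cells (1.34 CPM, 1.09 to 1.64) and 3891 UMIs in 540 injured cells (48.67 CPM, 47.16 to 50.23), a 36.2-fold higher level (29.5 to 45). Of the injured UMIs, 93.1% lay in cluster 8, at 150.5 CPM (145.6 to 155.5). Cluster 9 had 18.67 CPM, cluster 13 had 9.388, and clusters 18 and 16 had 3.806 and 3.36. The last 2 lay between the 2.275 CPM of injured stromal cells and the 5.289 CPM of the shallower neutrophils. The gene was unevenly spread: 58 of the 540 cells held 50% of the injured UMIs, and the highest held 137.

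Sprr2f was also the member that marked cluster 8 in the uninjured eye. The 40 uninjured cells of the cluster had 37 of that library's 94 Sprr2f UMIs, at 41.4 CPM (29.15 to 57.07), but in 5 cells only. Cluster 14 had 42 UMIs in 7 cells (4.018 CPM), and no other uninjured cluster had more than 11.

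Sprr2d had 7 UMIs in 3 uninjured cells and 206 UMIs in 61 injured cells, 0.1 against 2.58 CPM, a 25.8-fold higher level (12.3 to 64.9). Of the injured UMIs, 96.1% lay in cluster 8, 9 cells held 50% of them, and cluster 13 had 0 of 8415125 UMIs. Sprr2h had 92 UMIs in 58 uninjured cells and 349 in 184 injured cells, 1.31 against 4.37 CPM, a 3.32-fold higher level (2.63 to 4.23). Unlike Sprr2d, it had a place in the uninjured epithelium, where clusters 14 and 1 were at 3.444 and 2.968 CPM with overlapping intervals. In the injured library 81.4% of its UMIs lay in cluster 8 (11.79 CPM, 10.46 to 13.25). The other injured clusters had at most 1.545 CPM, near the 0.989 CPM of stromal cells. That stromal level rests on 10 UMIs and was 22.7% of the epithelial level, against 5.36% for Krt5. In neutrophils the share was 72.7% on 3 UMIs, against 15.1% for Krt5.

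The summed Sprr count hid this exchange of genes. All 15 Sprr genes of the tables together had 36483 UMIs (521.2 CPM) in the uninjured and 35021 (438.1 CPM) in the injured epithelium, 1.19-fold lower (1.17 to 1.21). Sprr2 genes made up 0.573% of these UMIs (0.498 to 0.656) in the uninjured and 39.1% (38.6 to 39.6) in the injured epithelium. Sprr1a went from 94.1% to 58.4%, Sprr2a3 from 0.0247% to 25.9% and Sprr2f from 0.258% to 11.1%. These are shares of counted UMIs, in which genes may be captured unequally, so they are compared between libraries and not between genes.

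**Figure D3:**
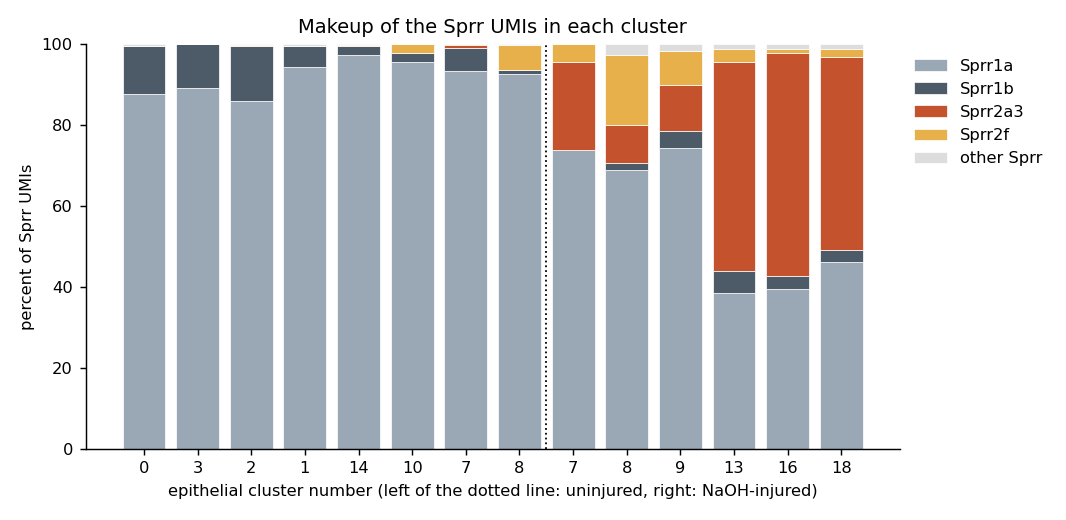
Percent of the Sprr UMIs of each epithelial cluster that came from Sprr1a, Sprr1b, Sprr2a3, Sprr2f and the other Sprr genes. In the uninjured clusters Sprr1a makes up 86 to 97.3%, whereas Sprr2a3 makes up 47.8 to 54.9% in injured clusters 13, 16 and 18 and Sprr2f 17.3% in injured cluster 8; injured cluster 7 and uninjured cluster 10 have only 23 and 44 Sprr UMIs.

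Of the 11 Sprr genes with at least 20 UMIs, 9 were at least 2-fold higher and 1 was lower in the injured epithelium, against 14.2% and 10.8% of all genes with as many UMIs, and those not yet described had low counts. Sprr2a1, Sprr2b and Sprr2e had 0 uninjured and 31, 25 and 36 injured UMIs, ratios of 9.05, 7.3 and 10.5 to the 3-count floor with intervals that begin at 6.93, 5.51 and 8.12. Sprr2j-ps had 1 and 29 UMIs, and Sprr2k had 6 and 39 UMIs (5.69-fold higher, 2.39 to 16.4). Sprr2a2 had 0 and 19 and Sprr2i 0 and 5 UMIs, under the 20 UMIs required for a ratio, and Sprr4 had 1 and 0. Reads of Sprr2a1 and Sprr2a2 are those most easily lost, or exchanged with each other and with Sprr2a3, so their low counts are uncertain.

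Sprr3, a precursor of wet-surfaced stratified epithelia such as oesophagus, was at the edge of detection with 1 uninjured and 7 injured UMIs. All 8 lay in cluster 8.

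Involucrin (Ivl), an early scaffold precursor, had 711 UMIs in the uninjured epithelium (10.16 CPM, 9.42 to 10.9) and 531 after injury (6.64 CPM, 6.09 to 7.23), 1.53-fold lower (1.37 to 1.71) and short of 2-fold. It was highest in uninjured cluster 3 at 18.81 CPM (15.42 to 22.74), as was Sprr1b, and not in clusters 14 (9.95) or 1 (6.849), where Sprr1a was high. Clusters 0 and 2 were at 11.75 and 10.41 CPM, and cluster 8 was at 12.31 CPM in uninjured and 11.88 CPM in injured cells. The Psca-high clusters 10 and 9 had 1 and 0 UMIs. The peak level depended on how finely cells were clustered, at 49.2 CPM at resolution 2 and 12.2 CPM at resolution 0.5. Of the 286 injured UMIs in cluster 8, 46 came from a single cell.

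Tgm1, the membrane-bound enzyme that joins the precursors, had 1055 UMIs in the uninjured epithelium (15.07 CPM, 14.18 to 16.01) and 1961 after injury (24.53 CPM, 23.46 to 25.64), 1.63-fold higher (1.51 to 1.76). Its levels were highest in uninjured cluster 8 (69.38 CPM, 53.19 to 88.94), injured cluster 8 (48.25, 45.52 to 51.11), uninjured cluster 10 (48.02, 33.63 to 66.47) and uninjured cluster 14 (44.58, 40.63 to 48.82). The last 3 could not be told apart, and the interval of uninjured cluster 8 overlapped that of cluster 10. Clusters 0 to 3 of the uninjured library lay between 5.714 and 10.27 CPM, below the 11.91 to 18.41 CPM of injured clusters 18, 13 and 16, although the intervals of clusters 1 and 3 overlapped that of cluster 18. Cluster 10 therefore combined high Tgm1 with Sprr1a, Sprr1b and Ivl at or near background. Tgm1 was not confined to epithelium: Schwann cells had 4 UMIs (56.83 CPM) and 13 UMIs (43.01 CPM) in the uninjured and injured libraries, and stromal cells had 15.4% and 23% of the epithelial level, against 5.98% and 5.36% for Krt5.

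Krtdap had 99 UMIs in 59 uninjured cells (1.41 CPM, 1.15 to 1.72) and 471 UMIs in 314 injured cells (5.89 CPM, 5.37 to 6.45), a 4.17-fold higher level (3.35 to 5.23). In the uninjured library 44.4% of its UMIs lay in cluster 7 (6.222 CPM), whereas clusters 0 to 3 and 14 had at most 1.352 CPM. The 44 UMIs of cluster 7 lay in 16 of its 624 uninjured cells, and 13 of them came from a single cell. In the injured library it was spread evenly, from 5.187 CPM in cluster 18 to 7.724 in cluster 13, with 11.67 in cluster 9 and 12.82 in cluster 7 on 10 and 4 UMIs. Its uninjured cluster 7 level overlapped those of the injured clusters.

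Over the whole epithelium, 14.2% of the 14627 genes with at least 20 UMIs were at least 2-fold higher and 10.8% at least 2-fold lower in the injured library, with an interval excluding 1 and a median log2 ratio of 0.05. Of the 10 members, 9 reached 20 UMIs (Sprr3 did not): Sprr2a3, Sprr2d, Sprr2f, Sprr2h and Krtdap were higher, Sprr1b was lower, and Sprr1a, Ivl and Tgm1 were neither. The median log2 ratio of the 9 was 1.73. The lower count rose to 3, with Sprr1a and Ivl added, when each cell was weighted alike and when cells were thinned to 1000 UMIs. With equal weights no interval was computed, so those calls used the ratio alone, and Ivl was just past the limit at a log2 ratio of -1.05. The higher count fell to 3 after thinning.

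Setting cluster 8 apart changed several of these ratios, and this split was made after the values were seen. In the rest of the epithelium (5334 uninjured, 4609 injured cells), 14.6% of 14278 genes were at least 2-fold higher and 13.1% lower. There Sprr1a was 4.5-fold lower (489 against 108.6 CPM), Sprr1b 3.17-fold lower (28 against 8.83 CPM) and Ivl 2.31-fold lower (10.1 against 4.39 CPM). Tgm1 was at 14.37 and 14.3 CPM, a ratio of 0.995 (0.906 to 1.09). Sprr2h, at 1.33 and 1.16 CPM, had a ratio of 0.874 (0.626 to 1.21), and Sprr2d had only 7 and 8 UMIs. Sprr2a3 (974-fold), Sprr2f (5.79-fold) and Krtdap (4.13-fold) were higher there too. However, the injured Sprr2f level of 4.78 CPM (4.22 to 5.39) lay between those of stromal cells (2.275 CPM) and neutrophils (5.289 CPM). The neutrophils were shallow, at a median of 852.5 UMIs, against 11994 in injured stromal and 11657.5 in injured epithelial cells. Stromal cells are thus the reference of like depth.

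Within cluster 8, 4.56% of 11536 genes were at least 2-fold higher and 5.65% lower. By UMI counts, Sprr2a3, Sprr2d, Sprr2f, Sprr2h and Sprr1b were higher there and no member was lower. Sprr2f was 3.63-fold higher (2.63 to 5.17, on 37 uninjured UMIs that lay in few cells). Sprr1b was 2.72-fold higher (1.16 to 8.44, on 5 uninjured UMIs in 3 of 40 cells). Its shares of cells with a UMI overlapped, at 7.5% of uninjured (1.57 to 20.4) and 11.3% of injured cells (9.51 to 13.3). Sprr2d and Sprr2h had 0 uninjured UMIs, and their ratios to the 3-count floor were 2.45 and 3.51, with intervals that begin at 1.97 and 2.84. By share of cells, the 0 of 40 uninjured cells (0 to 8.81%) overlapped the 4.72% of injured cells with Sprr2d (3.57 to 6.12). It did not overlap the 11.3% with Sprr2h (9.51 to 13.3). For Sprr2d no difference was therefore visible by share of cells. Sprr1a had a ratio of 0.991 (0.909 to 1.08), Ivl of 0.965 (0.531 to 1.96) and Tgm1 of 0.695 (0.538 to 0.913). The uninjured side of this comparison is 40 cells of 1 mouse, with Krt12 at 2617 CPM against 54.27 CPM in the injured cells of the cluster.

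In cluster 7, where 4.38% of 9932 genes were higher and 2.93% lower, only Sprr1a was called, 2.25-fold lower (1.4 to 3.89) on 17 injured UMIs. Sprr1b had 52 uninjured and 0 injured UMIs there, but the 0 in 29 cells allows a level above the uninjured 7.353 CPM, so no difference was detectable at this depth. Tgm1 (16.83 and 25.63 CPM) and Krtdap (6.222 and 12.82 CPM) had intervals that included no difference.

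**Figure D4:**
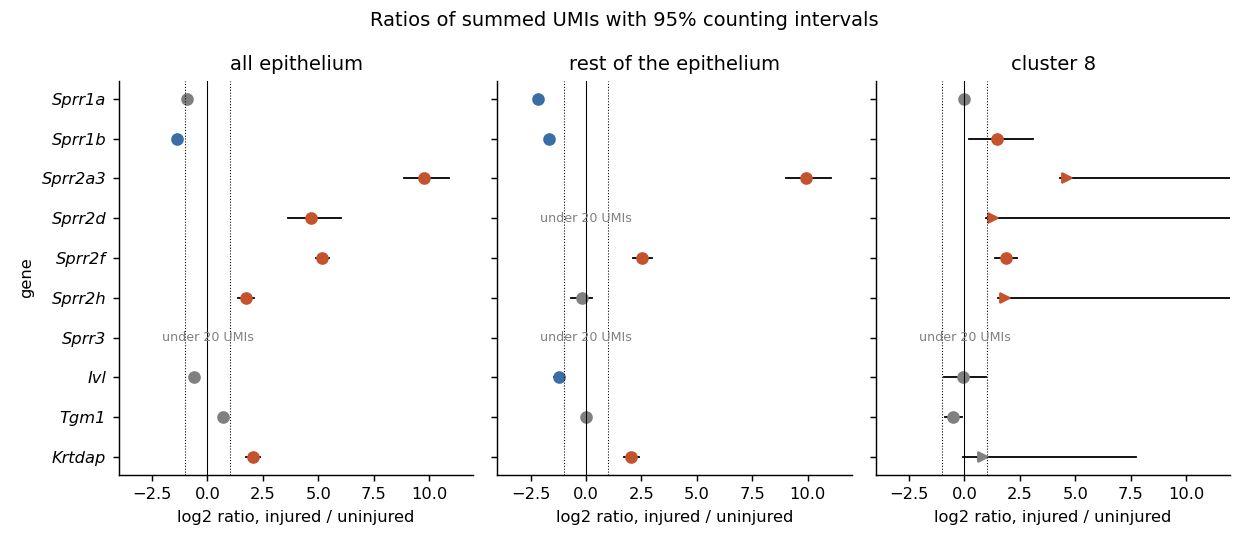
Log2 ratio, injured over uninjured, of each gene in all epithelial cells, in the epithelium without cluster 8 and in cluster 8, with 95% counting intervals (red at least 2-fold higher, blue at least 2-fold lower, grey neither). Triangles are ratios with a count under 3 set to 3, intervals without an upper end run to the right edge, and dotted lines mark 2-fold: Sprr1a and Sprr1b are blue in the middle panel, whereas in cluster 8 Sprr1a sits at 0 and Sprr1b is red.

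Whether the members were found in the same cells was asked within clusters after thinning to 1000 UMIs. Not every cluster with enough cells is given. Injured cluster 13 is left out for Sprr2a3 (54 thinned cells with a UMI), as are uninjured cluster 1 (24) and injured cluster 8 (22) for Sprr1b, among others. In uninjured cluster 0, 40.4% of 47 cells with Sprr1b also had Sprr1a (26.4 to 55.7), against 10% of cells without it (8.76 to 11.3), at like median depths of 10819 and 10713 UMIs. In uninjured cluster 3 the shares were 45% of 20 cells (23.1 to 68.5) and 19.4% (16 to 23.2). For Ivl in cluster 0 the intervals overlapped, with Sprr1a in 12.5% of 24 cells with Ivl (2.66 to 32.4) and 10.6% of those without (9.36 to 12).

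In injured cluster 8, Sprr1a was found in 21% of 62 cells with Sprr2a3 (11.7 to 33.2) and 32.9% of cells without it (30.1 to 35.8). Sprr2f was found in 17.7% of the same 62 cells (9.2 to 29.5) and 8.6% of the others (6.98 to 10.5), at median depths of 18047.5 and 14764.5 UMIs. In injured clusters 16 and 18, Sprr1a was found in 12% and 7.08% of cells with Sprr2a3 and in 9.08% and 7.7% of cells without it, with overlapping intervals. Before thinning, the cells with Sprr2a3 had Sprr1a more often in clusters 8, 16 and 18 (88.7 against 75.7%, 57.6 against 43% and 41.9 against 32.8%), but they were also deeper.

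Across the 14 sums of a cluster and a library, the genes whose log2 levels followed Sprr2a3 most closely were Tnc (Pearson r = 0.978), Col4a1 (0.977) and Igfbp3 (0.969), all highest in injured cluster 16. The genes most like Sprr1a were Bag2 (0.915), Tpd52 (0.91) and Edf1 (0.889). Those most like Sprr2f were Samhd1 (0.919), Cox6b1 (0.915) and Il1rn (0.902), which encodes the interleukin-1 receptor antagonist. Slc25a24 was most like Tgm1 (0.952), Urah most like Ivl (0.927), Tecr most like Sprr1b (0.91) and Prxl2a most like Krtdap (0.926). For Sprr2d and Sprr2h the closest genes reached only 0.748 (Aldh1a3) and 0.757 (Pmvk). Between members, Sprr2a3 went with Krtdap (r = 0.782) but not with Sprr1a (−0.331), and Ivl went with Sprr1a (0.558) and Sprr1b (0.547) but not with Tgm1 (−0.0437). These are descriptions over 14 points that share 2 libraries, with genes chosen from 3802 that had enough UMIs.

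The other lists are read against the shares of all genes, 14.2% higher and 10.8% lower. Of 22 measured precursors besides Ivl, 2 were higher and 9 lower, against 14.2% and 10.8% of all genes (median log2 ratio −0.83, against 0.05 over all genes). Loricrin (Lor) and Ecm1 were higher, Ecm1 from 38.46 to 334.8 CPM (8.71-fold), and Lce3a, a late envelope gene, fell from 51.37 to 5.62 CPM (9.15-fold lower). Cst6, a protease inhibitor that is itself an envelope precursor, fell from 61.97 to 17 CPM (3.65-fold lower). Along the epidermal differentiation complex 10 of 26 measured genes were higher and 7 lower, against the same 14.2% and 10.8%. Of the 10 higher genes 9 are the Sprr genes counted above, and all 4 measured Lce3 genes were lower.

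**Figure D5:**
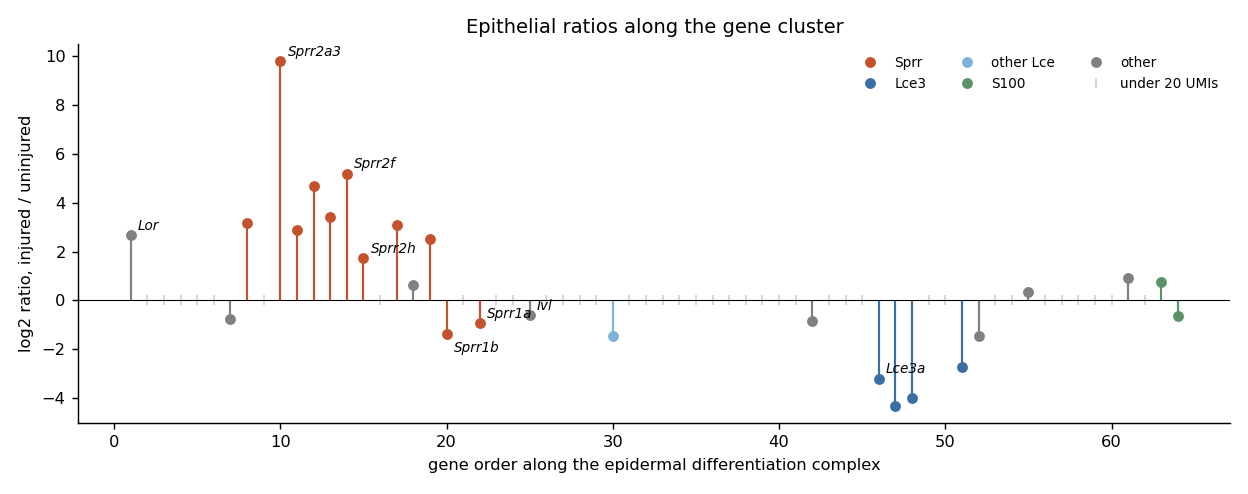
Log2 ratio, injured over uninjured, in all epithelial cells for genes of the epidermal differentiation complex in chromosomal order, with small ticks for genes under 20 UMIs. The Sprr2 genes stand above 0, Sprr1b, Sprr1a and Ivl below it, and the 4 measured Lce3 genes lie lowest.

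Of the transglutaminases besides Tgm1, 1 of 3 measured was higher and 1 lower, against 14.2% and 10.8% of all genes. So few genes cannot be set against those shares. The higher gene, F13a1, a gene also known from macrophages, had 0 uninjured and 30 injured UMIs, in sums where macrophage or monocyte markers went from 1.51 to 14.7 CPM. Their part in its count was not tested. The lower gene was Tgm2, tissue transglutaminase, at 55.34 and 4.14 CPM (13.4-fold lower). The neighbours of Krtdap, Sbsn and Dmkn, which encode the secreted proteins suprabasin and dermokine, were both higher, at 30.2 and 66.74 CPM (2.21-fold) and at 17.59 and 61.42 CPM (3.49-fold). Of 16 measured genes of desquamation and the lipid envelope, 3 were higher (Klk13, Klk8, Elovl4) and 3 lower (Klk7, Casp14, Cdsn), with a median log2 ratio of 0.03, and these counts are near the 14.2% and 10.8% of all genes.

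Of 27 transcription factors known to act on envelope genes, 3 were higher and 4 lower, near the 14.2% and 10.8% of all genes, with a median log2 ratio of −0.46. The AP-1 subunit genes Fos and Junb fell from 2469 to 675.4 CPM (3.66-fold) and from 1655 to 621.4 CPM (2.66-fold). Zfp750, a differentiation factor, fell from 54.67 to 24.02 CPM (2.28-fold), Pou2f3, a POU factor, was also lower, and the homeobox gene Barx2 was 12-fold higher (5.7 against 68.37 CPM). Of 10 measured suprabasal keratins, 3 were higher and 1 lower (Krt78), against 14.2% and 10.8% of all genes. Krt4 rose from 88.73 to 921.4 CPM (10.4-fold) and Krt13 from 492.3 to 1520 CPM (3.09-fold), and these keratins also lead cluster 8, which held 0.744% of the uninjured and 19.9% of the injured epithelial cells.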

How the data were processed

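Raw UMI counts of 1 uninjured and 1 NaOH-injured library were deposited by the authors as 10x matrices, which per the file headers came from Cell Ranger 7.0.1. The genome build was GRCm38, per the submitters' processing notes, and the sources used here name no 10x chemistry. The uninjured library had 7490 barcodes and 85457541 UMIs, and the injured library 9399 and 108863350. Cells with at least 300 genes, 500 UMIs and no more than 20% of UMIs from mitochondrial genes were kept. Scrublet's automatic threshold marked 0.448% and 0.0333% of cells and was taken as failed, so the highest doublet scores were removed at an assumed 0.8% per 1000 barcodes (428 and 677 cells).

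Both libraries were clustered together in scanpy 1.11.5 (2000 variable genes without the members and listed envelope genes, 30 components, 20 neighbours, Leiden resolution 1, no batch correction). Clusters were assigned to epithelium by marker genes. A shallow cluster (717 uninjured cells, 1 injured cell, median 1538 UMIs) stayed unnamed and out of the epithelium. Raw counts were summed per cluster or class and library and given as CPM. Ratios used counts under 3 set to 3 and needed 20 UMIs over both libraries, and higher or lower means at least 2-fold with an interval excluding 1. The calls were tried on simulated independent Poisson counts, the error the intervals assume. The simulation held no variation between cells or mice, so it does not check calls on unevenly spread genes. Free RNA was read from stromal cells and neutrophils, and the neutrophils were much shallower than the epithelium.

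The members and lists were chosen with earlier results of these data known. Named are all members, all Sprr genes, up to 4 genes per other list and direction that reach 50 CPM and have the largest ratios, and the genes most like each member over the cluster sums. Other names of list genes that were called, and Pou2f3 and Krt78, were given after their values were seen. Gene positions and transcripts come from GENCODE M21 (32158 gene IDs matched, 127 not), and promoters from RefSeq. Alternatives were a stricter cell filter, doublets kept, equal cell weights, thinning, TMM scaling, other resolutions and components, members kept in the clustering, the shallow cluster added and stricter limits for lists. Leaving out the highest cells and setting cluster 8 apart were added after seeing the data.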

Additional observations from a re-analysis of the deposited data

Results flagged for a closer look

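By UMI counts, the Sprr1b ratio pointed in opposite directions in cluster 8 and in the rest of the epithelium. Its log2 ratio, injured over uninjured, was 1.45 in cluster 8 (5 uninjured and 367 injured UMIs) and −1.67 in the other epithelial cells (1935 and 493 UMIs). Both intervals excluded no difference, but they treat each UMI as independent, and the 5 uninjured UMIs of cluster 8 lay in 3 of 40 cells. By share of cells with a UMI, no difference was visible in cluster 8, at 7.5% of uninjured (1.57 to 20.4) and 11.3% of injured cells (9.51 to 13.3). The difference between the 2 log2 ratios was not tested, since each group has 1 library.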

How the results depend on the processing

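The 9 member ratios kept their direction under all 11 alternatives, and 93 of the 99 values stayed within 1.5-fold. The exceptions were in thinned cells Sprr2a3 at 7.43 (log2; 0 uninjured cells with a UMI), Sprr2d at 1.08 and Sprr2h at 0.77, and without the 10 highest cells of each library Sprr2a3 at 11.31, Sprr2f at 8.47 and Krtdap at 2.78, where few uninjured UMIs are left. The summed Sprr log2 ratio of −0.25 was −0.19 with the stricter filter and at resolution 0.5 or 2, −0.20 with 15 components, members in the clustering or the shallow cluster added, −0.31 with TMM scaling, −0.47 thinned and −0.49 with equal cell weights. Members called higher fell from 5 to 3 when thinned, and those called lower rose from 1 to 3 when thinned or weighted by cell. Calls with equal cell weights used the ratio alone, without an interval. The cause of these changes was not tested beyond the fewer UMIs that thinning leaves. The Sprr2 share of Sprr UMIs was 0.413% and 40.2% in thinned cells. At 4-fold in place of 2-fold, 9 other listed genes were higher and 10 lower, in place of 14 and 18. The share of all genes past 4-fold was not computed, so the 4-fold counts cannot be set against a background. The level in the highest cluster moved by over 1.5-fold for Ivl (18.8 CPM, 49.2 at resolution 2 and 12.2 at 0.5), Sprr2d (8.22 CPM, 13.3 at resolution 2) and Krtdap (12.8 CPM, 7.88 at resolution 0.5). Members at their highest in an injured cluster numbered 5, and 4 to 7 under the alternatives. No paired analysis was possible because each group has 1 library, so no replicate could be left out. Depth limits Sprr3, Sprr2d and Krtdap, and everything in the 29 injured cells of cluster 7 and the 40 uninjured cells of cluster 8.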
